A study of Mus musculus with 15 samples.

Results

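SR proteins, Tra2 proteins and heterogeneous nuclear ribonucleoproteins (hnRNPs) are the RNA-binding proteins that decide which exons a transcript keeps. Members were the rows of the deposited gene table whose symbol was Srsf followed by a number, Tra2a, Tra2b, or Hnrnp followed by letters and digits, with a mean of at least 1 TPM over all libraries. TPM counts the transcripts of a gene relative to all transcripts of the library and is corrected for transcript length. Of 36144 symbols, 33 met this rule: 11 SR genes, 2 Tra2 genes and 20 hnRNP genes. All 33 also passed the filter on low values, at least 1 TPM in at least 3 libraries, which kept 15425 genes for the tests.

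The libraries came from lumbar motor neurons of segments L1 to L3 in mouse pups at postnatal day 6, labelled backwards from muscle with cholera toxin B and cut out by laser capture. There were 5 groups of 3 biological replicates on an FVB background, with both sexes. WT pups (Smn+/+) and SMA pups (Smn-/-, a model of spinal muscular atrophy) received vehicle. The other groups were SMA pups injected daily into the peritoneum from birth with MW150 (5 mg/kg), an inhibitor of the kinase p38α, with Pifithrin-α (2.2 mg/kg), an inhibitor of p53, or with SMN-C3 (3 mg/kg), which changes the splicing of human SMN2. All 5 groups carried the human SMN2 and SMNΔ7 transgenes, WT included, and SMN2 itself was not analysed here. Mouse Smn1 checked the labels: the WT libraries held 8.97, 16.5 and 23.3 TPM, and each of the 12 libraries from SMA pups held between 0 and 1.50 TPM.

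SR and Tra2 proteins mostly bind enhancers in exons and favour inclusion, while hnRNPs, with hnRNP A1 as the classic case, often bind silencers and favour skipping. This balance affects the inclusion of SMN exon 7, which TRA2B promotes and hnRNP A1 represses. SRSF1 promotes it in SMN1, not in SMN2. Many of these genes also limit their own output: a conserved exon or intron carries a premature stop, a transcript that keeps it is degraded by nonsense-mediated decay (NMD), and more of the protein commonly raises its inclusion.

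Such stop-carrying exons were located in the annotation as internal exons of an NMD transcript that the most abundant coding transcript of the gene skips. The exons of Tra2b, Tra2a, Srsf6 and Srsf3 are shown because the transcript shares described below rest on them. Each is written 5′ to 3′ on the gene's strand, from the first base of the exon to the end of the stop in frame with the upstream coding sequence, and the stop is in capitals (GENCODE M21 transcripts, GRCm38).
Tra2b: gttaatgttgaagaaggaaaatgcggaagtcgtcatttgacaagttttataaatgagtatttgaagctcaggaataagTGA
Tra2a: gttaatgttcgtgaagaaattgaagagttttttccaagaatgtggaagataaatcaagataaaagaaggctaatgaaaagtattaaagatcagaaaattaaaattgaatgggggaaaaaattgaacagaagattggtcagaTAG
Srsf6: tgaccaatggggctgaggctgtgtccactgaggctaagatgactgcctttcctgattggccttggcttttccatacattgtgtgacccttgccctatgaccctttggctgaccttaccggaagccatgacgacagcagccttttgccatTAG
Srsf3: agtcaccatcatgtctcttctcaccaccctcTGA
The Tra2b exon lies at chr16:22258986-22259261 (minus strand, exon 2 of Tra2b-206, 276 bases) and reaches its stop at base 81. The Tra2a exon lies at chr6:49252803-49253108 (minus strand, exon 2 of Tra2a-202, 306 bases), reaches its stop at base 144, and shares its first 9 bases with the Tra2b exon. The Srsf6 exon lies at chr2:162932815-162933082 (plus strand, exon 3 of Srsf6-201, 268 bases) with the stop ending at base 152. The Srsf3 exon lies at chr17:29039454-29039909 (plus strand, exon 4 of Srsf3-201, 456 bases) with the stop ending at base 34.

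The libraries were not alike in composition, and this touched the splicing regulators. The share of TPM from mitochondrial genes was 21.9% for WT 1, 20.4% for SMA+Pifithrin-α 3, 12.6% for SMA+Pifithrin-α 2 and 11.3% for SMA+SMN-C3 1, while the remaining 11 libraries ranged from 3.76% to 7.55%. The 33 genes together made up 4953 TPM in WT 1, 3622 and 3587 TPM in SMA+Pifithrin-α 2 and 3, and 3205 TPM in SMA+SMN-C3 1, against 2347 to 3022 TPM in the other 11. The 4 libraries with the most mitochondrial RNA were therefore also the 4 with the highest sums. WT 1 held the highest value of the 15 libraries for 15 of the 33 genes, whereas 15.8% of all tested genes had their highest value there. Within WT, library 1 lay above both others for 23 genes and below both for 9, and it exceeded their mean by more than 2-fold for 10. Some counts, medians and named genes are given below with and without these 4 libraries, or with and without WT 1 alone. Their part in the other results was not tested. The motor neuron markers Chat, Slc18a3, Slc5a7, Mnx1, Isl1, Isl2, Prph, Ret, Chodl and Mmp9 were all measured, with a summed level of 1880 to 3608 TPM per library, lowest in SMA+Pifithrin-α 3 and WT 1. The 13 microglial markers summed to 78.0 to 108 TPM in WT, 199 to 241 TPM in SMA, 147 to 207 TPM with MW150, 88.5 to 154 TPM with Pifithrin-α and 103 to 138 TPM with SMN-C3. All 13 were higher in SMA than in WT, 1 of them called, and all 13 lower with Pifithrin-α and with SMN-C3 than in SMA, none called. The 10 astrocyte markers had a median log2 change of 0.45 in SMA against WT (10 higher), -0.73 with Pifithrin-α (9 lower) and -0.84 with SMN-C3 (8 lower). For the 10 oligodendrocyte lineage markers it was 1.03 (8 higher), -1.29 (10 lower) and -0.83 (10 lower), and for the 5 red blood cell markers 0.54 (5 higher), -1.16 (5 lower) and -1.08 (5 lower). Of the 8 vascular markers 4 were higher and 4 lower in SMA, 5 lower with Pifithrin-α and 7 lower with SMN-C3. None of these 4 lists held a called gene. Of all genes 66.5% were higher in SMA (median 0.24), 65.5% lower with Pifithrin-α (-0.22) and 73.2% lower with SMN-C3 (-0.23). With MW150 the medians were -0.32 for microglial, -0.05 for astrocyte, 0.11 for oligodendrocyte and -0.41 for red blood cell markers. That of all genes was then 0.06. Oligodendrocyte markers summed to 688 to 2077 TPM in WT, 888 to 4260 TPM in SMA, 980 to 5849 TPM with MW150, 445 to 1380 TPM with Pifithrin-α and 644 to 1814 TPM with SMN-C3, so every group overlapped SMA. The part of these other cells in the results below was not tested. In such bulk samples fewer cells of a type and less RNA per cell cannot be told apart.

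**Figure D1:**
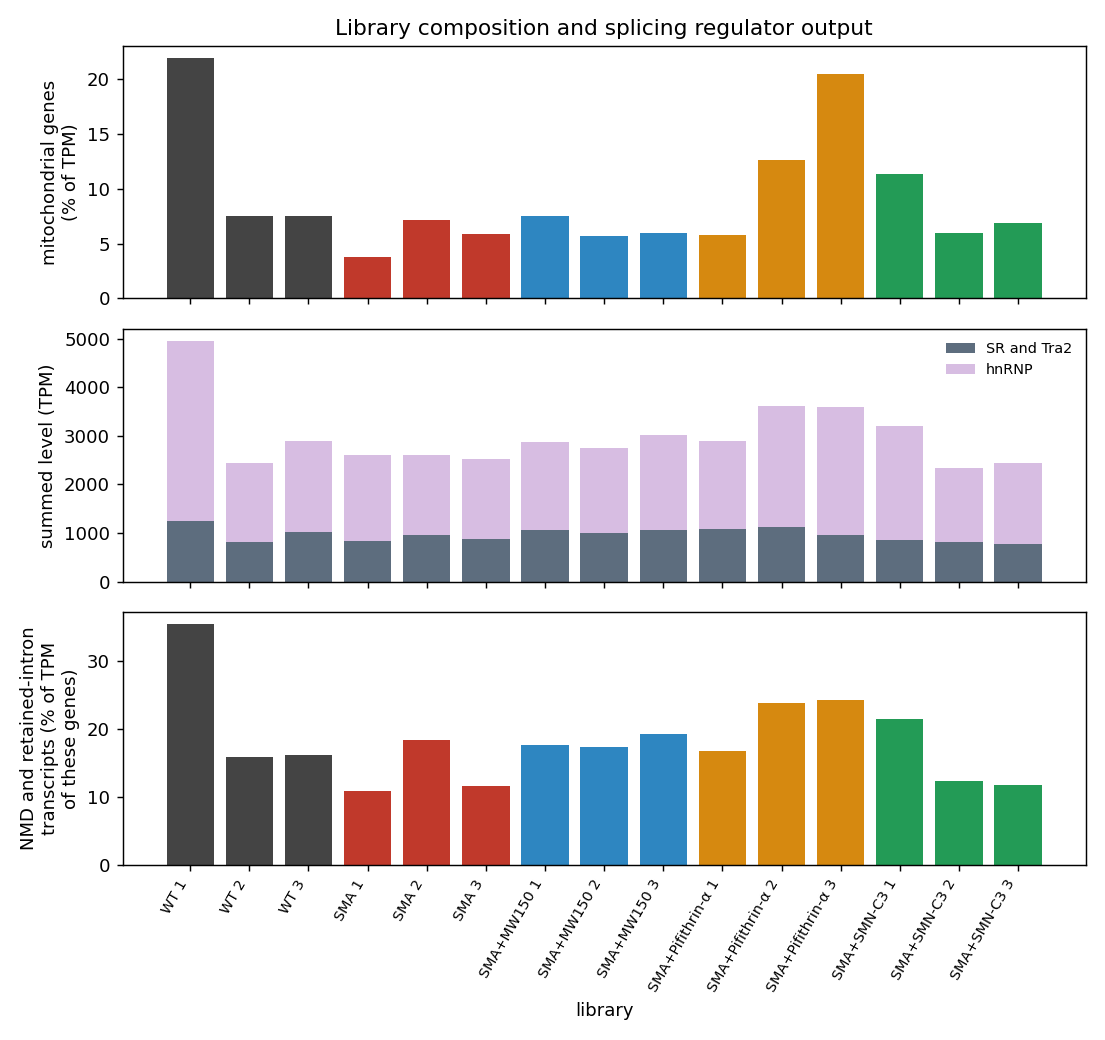
Share of mitochondrially encoded genes (percent of TPM, top), summed level of the 33 splicing regulators split into SR with Tra2 genes and hnRNP genes (TPM, middle) and share of their TPM on NMD and retained-intron transcripts (percent, bottom) in each of the 15 libraries, coloured by group. WT 1, SMA+Pifithrin-α 2, SMA+Pifithrin-α 3 and SMA+SMN-C3 1 stand above the other 11 libraries in mitochondrial share, in the total and the hnRNP part of the middle panel, and in unproductive share.

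The hnRNP genes took most of the signal. Their sum was 1.68 to 2.13 times that of the SR and Tra2 genes in the 11 libraries with less mitochondrial RNA, and 2.95, 2.74, 2.70 and 2.21 times in WT 1, SMA+Pifithrin-α 3, SMA+SMN-C3 1 and SMA+Pifithrin-α 2. In WT the highest levels were those of Hnrnpa2b1 (696 ± 620 TPM, SD, n = 3 here and below), whose protein binds silencers much as hnRNP A1 does, Hnrnpk (364 ± 92.6 TPM), a protein that binds C-rich RNA, and Hnrnph1 (189 ± 124 TPM), which binds G-rich RNA. The lowest were Srsf4 (13.1 ± 4.14 TPM), Hnrnpll (9.47 ± 4.86 TPM), known for the splicing of CD45 in lymphocytes, and Hnrnpul1 (8.62 ± 1.30 TPM), a relative of hnRNP U. The SD of Hnrnpa2b1 came from 1 library: its values were 1410, 295 and 383 TPM.

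Most of that excess lay on 1 short transcript. Hnrnpa2b1-208 (chr6:51462800-51464160, minus strand, annotated as retained intron) stood at 866 TPM in WT 1, at 282, 166 and 226 TPM in SMA+Pifithrin-α 2, SMA+Pifithrin-α 3 and SMA+SMN-C3 1, and at 6.70 to 51.8 TPM elsewhere. The main coding transcript, Hnrnpa2b1-204, ranged only from 142 to 251 TPM over all 15 libraries, with 186 TPM in WT 1. A like split was seen in 2 further markers, chosen after their values were seen. Hnrnpa1-205, a coding transcript, reached 194 TPM in WT 1 and 115 TPM in SMA+Pifithrin-α 3, and no more than 8.71 TPM in any other library. Srsf3-207, annotated as a processed transcript, reached 28.6 TPM in WT 1 and 65.9 TPM in SMA+Pifithrin-α 3 but no more than 0.242 TPM elsewhere.

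**Figure D2:**
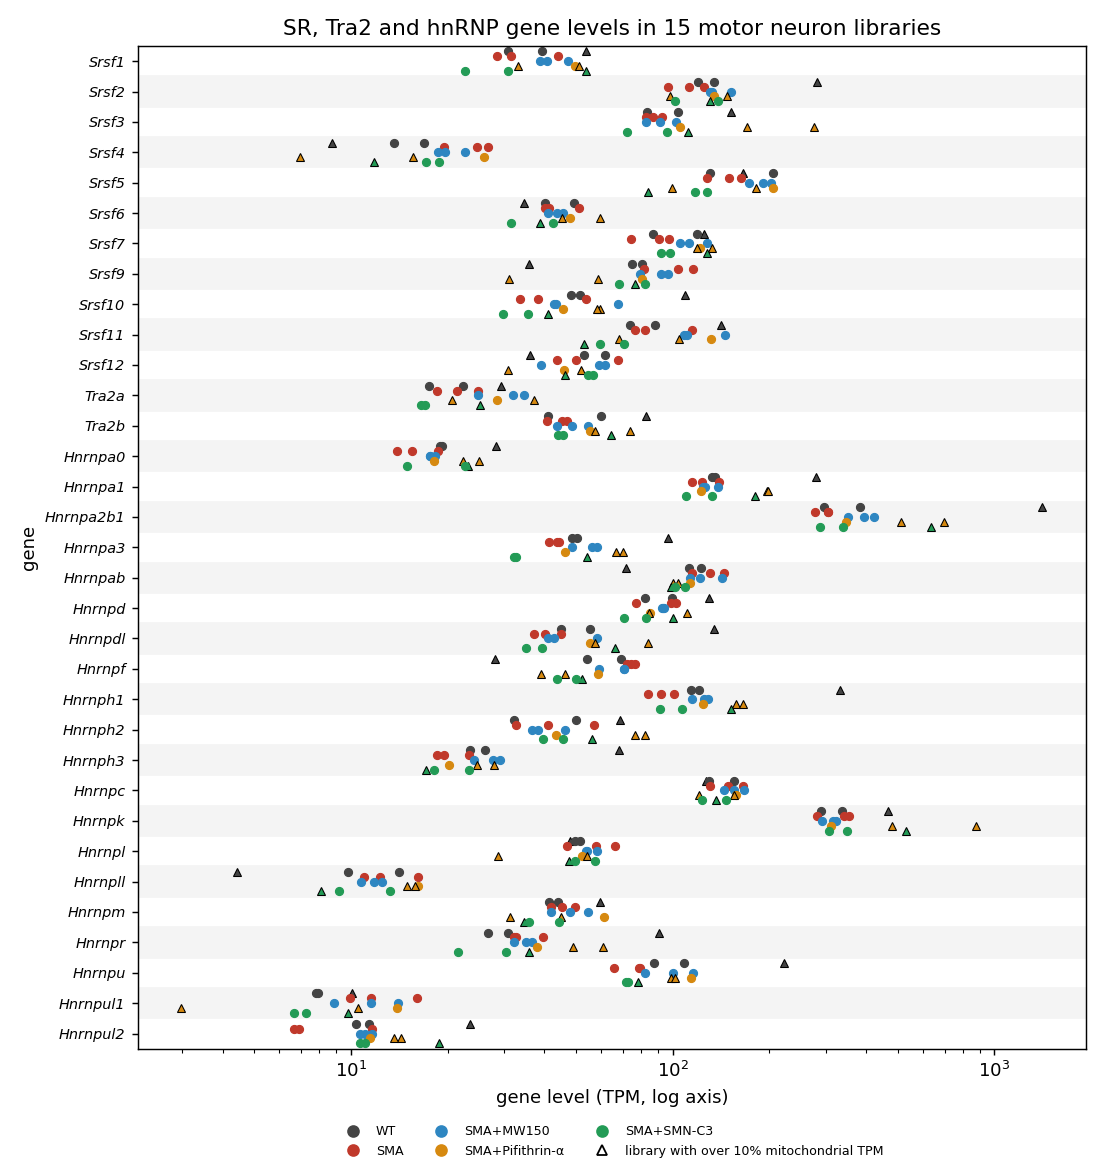
Level of each of the 33 genes (TPM, logarithmic axis) in the 15 libraries, 1 point per library, coloured by group, with triangles for the 4 libraries above 10% mitochondrial TPM. The WT triangle, WT 1, is the rightmost point for 15 genes, Hnrnpa2b1 at 1410 TPM among them, while most other points of a gene lie close together.

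The first comparison asked how SMA motor neurons differ from WT. No splicing regulator passed the test: 0 of 33 were called by limma at a Benjamini-Hochberg adjusted p under 0.05, where 56 of 15425 genes were (0.363%). At an unadjusted p under 0.05 there were 7 members, 2 higher and 5 lower, against 13.5% of all genes (10.6% higher, 2.88% lower). Without WT 1 there were 0 (5.99% of all genes), and when only WT and SMA were fitted there was 1 (8.87%). The 33 members had a median log2 change of -0.17, with 10 above 0 and 23 below, whereas the median of all tested genes was 0.24 and 66.5% of them lay above 0 and 33.3% below. Scaling by medians of ratios put the members at -0.42 and all genes at 0.04. Without WT 1 the median of the members was -0.03, with 15 above 0 and 18 below, and that of all genes 0.12. Groups did not overlap for 3 members that were higher in SMA (Hnrnpf, Srsf4 and Srsf9, where 14.5% of all genes were) and 5 that were lower (Hnrnpu, Hnrnph1, Hnrnph3, Hnrnpa3 and Hnrnpa0, where 3.81% of all genes were).

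The 5 members with the lowest p split into 3 lower and 2 higher in SMA. Hnrnpu encodes a nuclear scaffold protein that also acts in splicing, and WT libraries held 223, 87.4 and 108 TPM of it, SMA libraries 78.9, 65.9 and 79.2 TPM. All SMA values lay below all WT values, with a log2 change of -0.78 (SE 0.29, limma adjusted p = 0.302). For Hnrnph1 the WT levels were 332, 121 and 114 TPM and the SMA levels 101, 91.8 and 84.0 TPM, again without overlap (log2 change -0.85, SE 0.33, limma adjusted p = 0.323). Hnrnph3, of the same G-rich binding family, measured 68.4, 23.6 and 26.1 TPM across WT against 18.5, 23.4 and 19.5 TPM across SMA (log2 change -0.75, SE 0.34, limma adjusted p = 0.364). In all 3 genes WT 1 was more than 2-fold above each other WT library, and without it the log2 changes were -0.38, -0.35 and -0.27 (limma adjusted p = 0.930, 0.964 and 0.983). Hnrnpf, their close relative, went the other way, with 28.0, 54.3 and 69.2 TPM across WT against 76.3, 72.1 and 74.3 TPM across SMA (log2 change 0.64, SE 0.29, limma adjusted p = 0.364). Srsf4, an SR protein with a long serine-arginine tail, measured 8.73, 13.7 and 16.9 TPM across WT against 26.8, 24.6 and 19.5 TPM across SMA (log2 change 0.84, SE 0.38, limma adjusted p = 0.368). For both of these WT 1 was the lowest WT library, and without it the log2 changes were 0.27 and 0.59. Genes on the opposite strand overlap Hnrnpu (Cox20), Hnrnph3 (Rufy2), Hnrnpf and Srsf4, and since the use of strand is not given in the sources used here, their reads may be mixed.

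The regulators of SMN exon 7 were measured with the same uncertainty. Srsf1, an SR protein that promotes exon 7 of SMN1, measured 54.0, 30.7 and 39.2 TPM across WT against 28.4, 44.1 and 31.5 TPM across SMA, with overlapping groups (log2 change -0.23, 95% interval -0.91 to 0.45). Tra2b, which binds the enhancer in the middle of exon 7, measured 82.4, 40.9 and 60.1 TPM across WT against 40.8, 45.3 and 46.9 TPM across SMA (log2 change -0.40, interval -0.97 to 0.17). Hnrnpa1, the repressor, measured 279, 135 and 133 TPM across WT against 139, 124 and 115 TPM across SMA (log2 change -0.44, interval -1.07 to 0.18). All 3 genes were highest in WT 1 among the WT libraries, and without it the log2 changes were -0.03 for Srsf1, -0.16 for Tra2b and -0.09 for Hnrnpa1. Hnrnpa2b1 had a log2 change of -0.88 (interval -1.82 to 0.07). Srsf3, a small SR protein with roles in splicing and mRNA export, had one of -0.33 (interval -0.99 to 0.33). Without WT 1 these were -0.19 for Hnrnpa2b1 and -0.10 for Srsf3. With all libraries, none of the 5 intervals excludes 0. Over a list of 11 known regulators of exon 7, 2 were higher and 9 lower in SMA, with a median log2 change of -0.28 and 0 called. The list includes some of the 33 members, Tra2b, Hnrnpc and Hnrnpm among them, so it is not a separate set of genes. Of all genes 33.3% were lower, and their median was 0.24. The list summed to 2537, 921 and 1102 TPM across WT and to 943 to 993 TPM in SMA. Its counts and median without WT 1 were not tested.

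The other subfamilies showed the same mixture. Of the 11 SR genes, 4 had a log2 change above 0 and 7 below, from -0.65 (Srsf10) to 0.84 (Srsf4). Of the 7 genes of the hnRNP A/B and D group, only Hnrnpab, at 0.37, was above 0. Both hnRNP L genes were above 0, Hnrnpl at 0.18 and Hnrnpll at 0.54, and Hnrnpc, which binds U-rich RNA, was at 0.11. WT 1 lay below both other WT libraries for Hnrnpab, Hnrnpl, Hnrnpll, Hnrnpc and Srsf4. It lay above both for Srsf10 and for the 6 genes of the A/B and D group that were below 0. The interval was widest for Hnrnpa2b1, at 0.94 on either side, and its median over the members was 0.62.

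**Figure D3:**
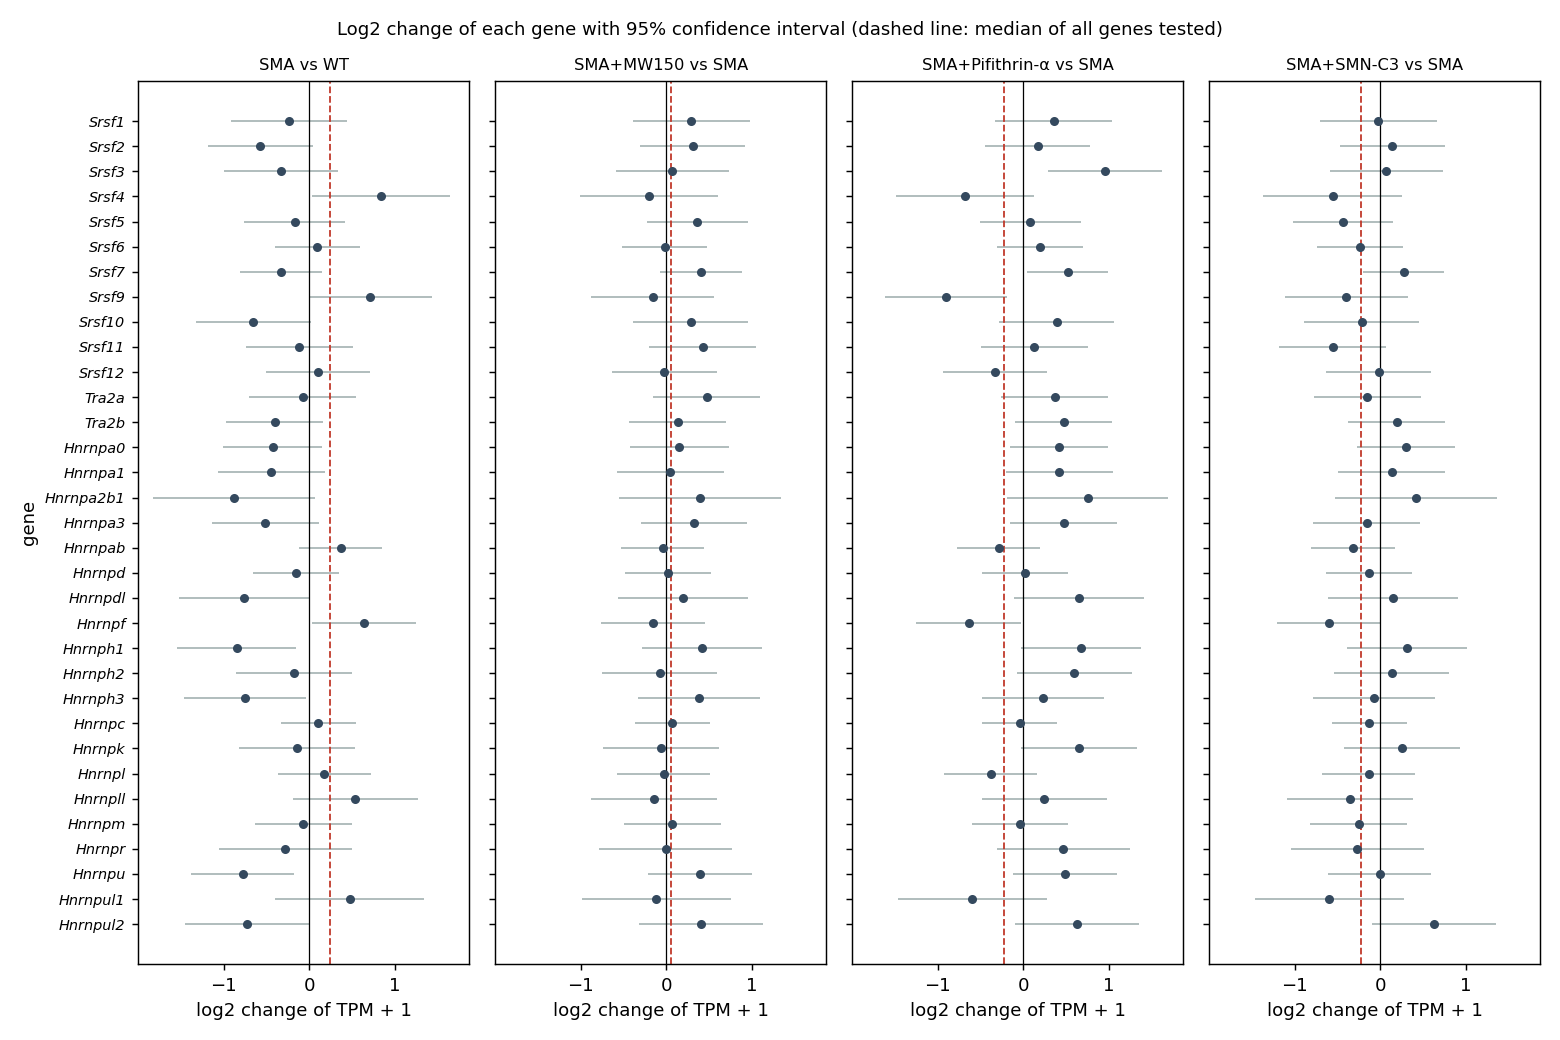
Log2 change of TPM + 1 for each of the 33 genes in SMA against WT and in each treatment against SMA, as points with the 95% confidence interval from limma. The dashed line is the median of all 15425 genes, at 0.24 in SMA against WT and -0.22 with Pifithrin-α, and 6 of the 33 points lie above it in the former and 26 in the latter.

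The treatments were each compared with the same 3 SMA libraries, so these comparisons share their controls and are given side by side. With MW150, 0 of 33 members were called (0.00648% of all genes, a single gene), and 0 had an unadjusted p under 0.05 (1.9% of all genes). That number was 8 (6.34%) without the 4 libraries rich in mitochondrial RNA, none of which belongs to SMA or MW150, and 7 (5.83%) when only these 2 groups were fitted, with 0 called in either. The median log2 change of the members was 0.07 and that of all genes 0.06, with 21 members above 0 and 12 below (57.9% and 42.1% of all genes). MW150 libraries lay above all SMA libraries for 8 members (7.53% of all genes) and below them for 1 (3.41%). The lowest p belonged to Srsf7, an SR protein with a zinc knuckle, at 90.5, 74.1 and 97.2 TPM without treatment and 128, 105 and 113 TPM with MW150 (log2 change 0.40, SE 0.23, limma adjusted p = 1). Tra2a, the paralog of Tra2b, was at 21.4, 24.9 and 18.5 TPM against 34.6, 24.9 and 32.0 TPM (log2 change 0.48, limma adjusted p = 1). Srsf11, which acts near 3′ splice sites, was at 81.9, 115 and 76.2 TPM against 146, 111 and 109 TPM (log2 change 0.43, limma adjusted p = 1). Among the markers, log2 changes were 0.30 for Srsf1, 0.07 for Srsf3, 0.14 for Tra2b, 0.05 for Hnrnpa1 and 0.39 for Hnrnpa2b1.

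With Pifithrin-α, 0 of 33 members were called (0.00648% of all genes), and 4 had an unadjusted p under 0.05 (10.7% of all genes). The members stood apart in direction from the bulk of genes: 24 of 33 had a log2 change above 0 and their median was 0.36, while 34.4% of all genes lay above 0, 65.5% below, and their median was -0.22. The groups did not overlap for 8 members that were higher (5.53% of all genes) and 3 that were lower (9.76%). Without the 4 libraries rich in mitochondrial RNA, only SMA+Pifithrin-α 1 was left in this group; the median of the members was then 0.17 and that of all genes 0.13. Srsf3 had the lowest p, at 86.7, 82.9 and 92.6 TPM without treatment and 105, 171 and 275 TPM with Pifithrin-α (log2 change 0.96, SE 0.31, limma adjusted p = 0.461). All 3 treated libraries lay above all SMA libraries, and the order of the treated values followed their mitochondrial share. Srsf9, an SR protein close to Srsf1, was at 81.3, 116 and 104 TPM against 80.5, 58.5 and 31.0 TPM (log2 change -0.90, SE 0.34, limma adjusted p = 0.461), with values in the reverse order. Srsf7 was at 122, 133 and 119 TPM with Pifithrin-α, above every SMA library (log2 change 0.52, SE 0.23, limma adjusted p = 0.461). With SMA+Pifithrin-α 1 alone, without the 4 libraries, the log2 changes against SMA were 0.27 for Srsf3, -0.30 for Srsf9 and 0.49 for Srsf7.

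The outcome of this comparison depended on how much each library counts. Weights per library that limma estimates gene by gene, added after seeing the data, gave SMA+Pifithrin-α 2 a weight of 5.71, SMA+Pifithrin-α 3 one of 0.188 and WT 1 one of 0.138, so that the treated mean rests mainly on 1 library. Under these weights 13 of 33 members were called against SMA, 11 higher and 2 lower, where 10.2% of all genes were called. Those higher were Hnrnpa1, Hnrnpa2b1, Hnrnpa3, Hnrnpdl, Hnrnph1, Hnrnph2, Hnrnpr, Hnrnpul2, Srsf3, Srsf7 and Tra2a, and those lower Hnrnpf and Srsf9. SMA+Pifithrin-α 2 is 1 of the 4 libraries above 10% mitochondrial TPM. Among the markers, log2 changes without weights were 0.36 for Srsf1, 0.47 for Tra2b, 0.42 for Hnrnpa1 and 0.75 for Hnrnpa2b1, and without the 4 libraries 0.54 for Srsf1, 0.32 for Tra2b, -0.04 for Hnrnpa1 and 0.23 for Hnrnpa2b1. In SMA+Pifithrin-α 1 alone, Hnrnpa1 was at 122 TPM, within the SMA range.

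With SMN-C3, 0 of 33 members were called (0.0648% of all genes), and 0 had an unadjusted p under 0.05 (8.53% of all genes). It was 5 both without the 4 libraries (15.3%) and when only these 2 groups were fitted (14.7%), again with 0 called. The median log2 change was -0.13 for the members and -0.23 for all genes, with 12 members above 0 and 21 below (26.6% and 73.2% of all genes). Scaling the libraries by medians of ratios turned the sign of the member median, to 0.14, with 24 above 0 and 9 below, while the median of all genes was then 0.00. No member lay above SMA in all 3 libraries (2.52% of all genes did), and 6 lay below (18.2%). Hnrnpf had the lowest p, at 52.4, 50.1 and 43.8 TPM against 76.3, 72.1 and 74.3 TPM without treatment (log2 change -0.60, SE 0.29, limma adjusted p = 0.589). Its treated values lay above the 28.0 TPM of WT 1 and below the 54.3 and 69.2 TPM of WT 2 and WT 3. Srsf11 was at 53.0, 70.5 and 59.5 TPM, below every SMA library (log2 change -0.56, limma adjusted p = 0.639). Hnrnpul2, a relative of hnRNP U, was at 18.8, 11.1 and 10.7 TPM against 6.89, 11.6 and 6.66 TPM without treatment (log2 change 0.62, limma adjusted p = 0.659). For the markers the log2 changes were -0.02 for Srsf1 (interval -0.70 to 0.66), 0.07 for Srsf3, 0.19 for Tra2b (interval -0.37 to 0.76), 0.14 for Hnrnpa1 (interval -0.49 to 0.76) and 0.42 for Hnrnpa2b1.

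Treated groups set against WT gave 0 called members each, where 22, 18 and 3 genes were called with MW150, Pifithrin-α and SMN-C3 (0.143%, 0.117% and 0.0194%). With SMN-C3 against WT, 6 members were lower at an unadjusted p under 0.05 (5.08% of all genes), namely Hnrnpu, Srsf10, Hnrnph3, Srsf11, Hnrnpa3 and Srsf5. WT 1 is the highest WT library in all of these except Srsf5, and without it no member had such a p (4.04% of all genes in either direction). Between treatments, 0 members were called in the fit over all groups (0.00648% of all genes for MW150 against SMN-C3, 0 genes for the other pairs). When only the MW150 and SMN-C3 libraries were fitted, 2.94% of all genes and 2 members were called, both lower with SMN-C3: Srsf11, at 146, 111 and 109 TPM with MW150 (log2 difference 0.98, SE 0.17, limma adjusted p = 0.0239), and Srsf5, at 173, 190 and 202 TPM against 83.7, 117 and 128 TPM (log2 difference 0.80, SE 0.17, limma adjusted p = 0.0441). In the fit over all groups the same differences had limma adjusted p = 0.244 and 0.308. The doses of the compounds differ (5, 2.2 and 3 mg/kg), and no order of potency is read from these values.

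Over all 5 groups at once, the moderated F test of limma called 0 members (0.220% of all genes), with 2 at an unadjusted p under 0.05 (9.46% of all genes). The 3 lowest were Srsf3 (unadjusted p = 0.0404), Srsf11 (unadjusted p = 0.0498) and Hnrnpu (unadjusted p = 0.0634).

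Exon 7 responds to the balance of repressor and activators, where Srsf1 counts as an activator for SMN1 only. The ratios of Hnrnpa1 to Srsf1 and to Tra2b were therefore taken within each library, where the scaling of a library cancels. The log2 ratio of Hnrnpa1 to Srsf1 was 2.06 ± 0.31 in WT, 1.85 ± 0.39 in SMA, 1.60 ± 0.08 with MW150, 1.91 ± 0.63 with Pifithrin-α and 2.01 ± 0.25 with SMN-C3. The log2 ratio of Hnrnpa1 to Tra2b was 1.52 ± 0.34, 1.48 ± 0.24, 1.39 ± 0.19, 1.43 ± 0.32 and 1.42 ± 0.11 in the same order. The 8 differences, SMA against WT and each treatment against SMA for both ratios, lay between -0.25 and 0.16, with exact two-sided permutation p from 0.4 to 0.9 and 0.9 for each after Benjamini-Hochberg adjustment; with 3 against 3 libraries the exact test cannot go below 0.1. Groups overlapped in all of them. These ratios use whole-gene levels, so transcripts that keep a stop-carrying exon count as well. For Tra2b such transcripts took 1.42% to 27.5% of TPM in WT, 32.1% to 39.0% in SMA and 23.5% to 36.6% with MW150. They took 13.0% to 17.3% with Pifithrin-α and 9.11% to 15.7% with SMN-C3. The ratio of coding transcripts alone was not tested.

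**Figure D4:**
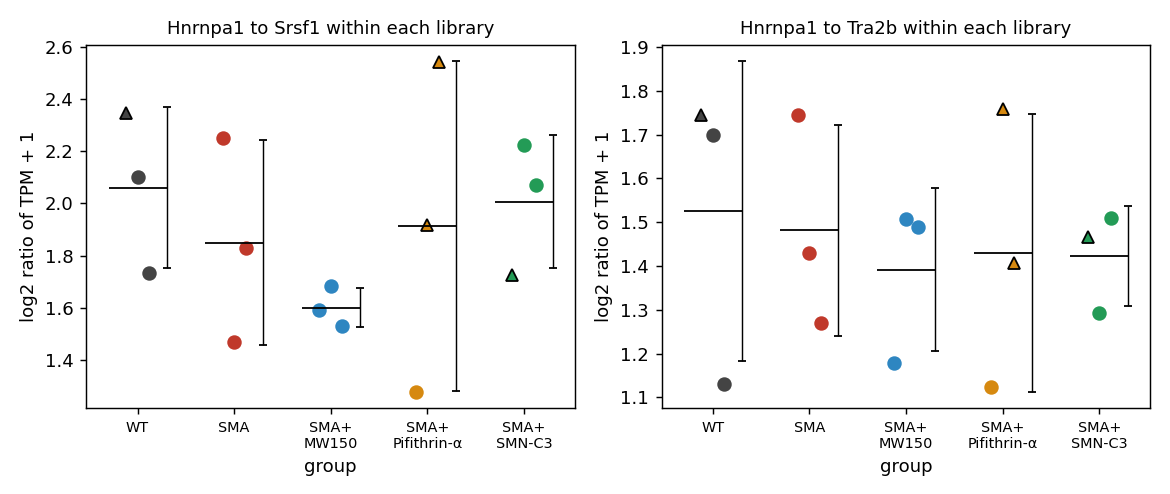
Log2 ratio of Hnrnpa1 to Srsf1 (left) and of Hnrnpa1 to Tra2b (right) in each library, by group, with the group mean as a line and the SD as a bar; triangles are the 4 libraries above 10% mitochondrial TPM. The group means span 1.60 to 2.06 on the left and 1.39 to 1.52 on the right, and the points of WT and SMA, and of SMA and each treatment, overlap.

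The share of each gene's TPM on unproductive transcripts, annotated as NMD or retained intron, was the second readout. Over all 33 genes it was 35.4% of TPM in WT 1, 23.8%, 24.3% and 21.5% for SMA+Pifithrin-α 2, SMA+Pifithrin-α 3 and SMA+SMN-C3 1, with the remaining 11 libraries between 10.8% and 19.2%. The balance of unproductive to coding TPM could be tested for 23 members among 5688 genes, as the log2 difference of both sums, each plus 1 TPM. In SMA against WT, 0 of the 23 were called by limma (0.0352% of all genes), and 8 had an unadjusted p under 0.05 (12.1% of all genes). The members' median log2 change in balance was -0.45 and that of all genes -0.19. This median and the count at an unadjusted p under 0.05 were not tested without WT 1, the library with the highest unproductive share. With MW150, Pifithrin-α and SMN-C3 against SMA, 0 of 23 were called each time (0%, 0% and 0.0176% of all genes), and 1, 4 and 2 had an unadjusted p under 0.05 (6.61%, 8.03% and 7.4% of all genes).

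Tra2b had the lowest p of this test with SMN-C3 against SMA. Transcripts that keep the exon shown above took 1.42%, 27.5% and 23.7% of Tra2b TPM in WT and 32.1%, 39.0% and 34.0% in SMA. They took 36.6%, 29.8% and 23.5% with MW150, 14.3%, 17.3% and 13.0% with Pifithrin-α and 9.11%, 12.1% and 15.7% with SMN-C3. All SMA libraries lay above all WT, Pifithrin-α and SMN-C3 libraries, while those with MW150 overlapped SMA. The log2 difference in unproductive balance of Tra2b was 1.62 in SMA against WT (SE 0.65, limma adjusted p = 0.376). Against SMA it was -1.40 with Pifithrin-α (limma adjusted p = 0.603), -1.91 with SMN-C3 (SE 0.65, limma adjusted p = 0.471) and -0.29 with MW150 (limma adjusted p = 0.978), so none of these passed the test. Without WT 1 the difference between SMA and WT was 0.60 (limma adjusted p = 0.857). Without the 4 libraries rich in mitochondrial RNA, the differences were -1.55 for Pifithrin-α, from 1 treated library, and -1.69 for SMN-C3 (limma adjusted p = 0.448 and 0.221).

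Hnrnpa1 and Srsf6 also had higher unproductive shares in every SMA library than in any WT library. In balance, SMA lay above WT without overlap for Tra2b, Hnrnpa1, Srsf6, Hnrnpu and Hnrnpdl. It lay below WT without overlap for Tra2a, Hnrnpm and Hnrnph3. The share of all tested genes without overlap in balance is not given here, so these members are not set against it. Unproductive transcripts took 2.43%, 5.58% and 3.83% of Hnrnpa1 TPM in WT and 11.5%, 8.68% and 8.89% in SMA. They took 5.71%, 9.80% and 8.67% with MW150, 9.64%, 5.34% and 4.81% with Pifithrin-α and 3.40%, 6.95% and 4.40% with SMN-C3. Every SMA library was above every WT and every SMN-C3 library, for a log2 change in balance of 1.36 in SMA (SE 0.47, limma adjusted p = 0.337) and -1.01 with SMN-C3 (SE 0.47, limma adjusted p = 0.664). Without WT 1 the change in SMA was 1.03, and without the 4 libraries rich in mitochondrial RNA that with SMN-C3 was -0.77. The transcript with the Srsf6 exon took 2.77%, 7.60% and 4.77% of Srsf6 TPM in WT, 29.0%, 13.5% and 14.7% in SMA and 5.03%, 1.13% and 0% with Pifithrin-α. SMA stood clear of both. With MW150 the shares were 2.02%, 19.2% and 16.5%, and with SMN-C3 1.55%, 0.786% and 21.0%, so each of these groups had libraries on both sides. The log2 difference in unproductive balance of Srsf6 was 1.51 in SMA (SE 0.65, limma adjusted p = 0.392) and -2.09 with Pifithrin-α (SE 0.65, limma adjusted p = 0.593). Without WT 1 the former was 1.47, and without the 4 libraries the latter was -1.30, from 1 treated library.

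**Figure D5:**
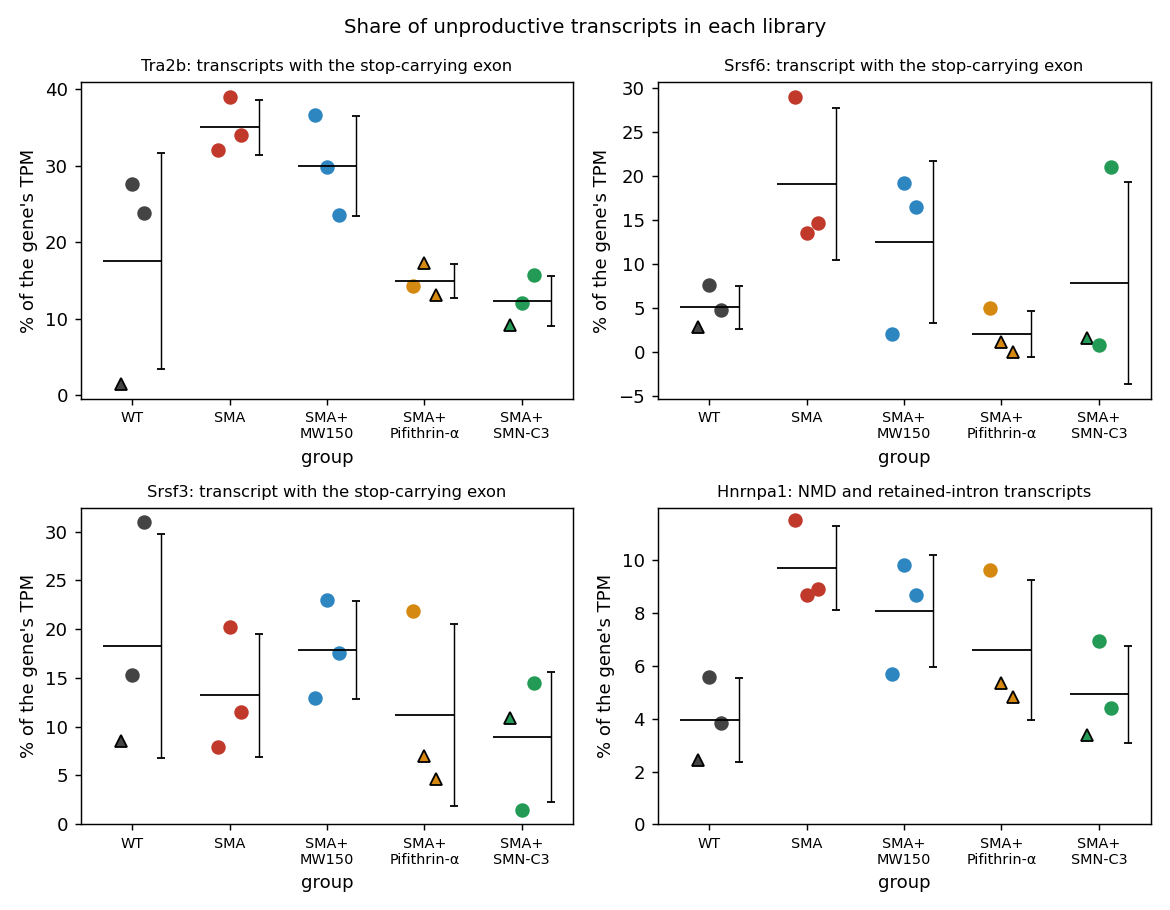
Share of the gene's TPM (percent) on transcripts with the stop-carrying exon for Tra2b, Srsf6 and Srsf3, and on NMD and retained-intron transcripts for Hnrnpa1, in each library by group; lines are group means, bars SD, and triangles the 4 libraries above 10% mitochondrial TPM. For Tra2b the 3 SMA libraries, at 32.1% to 39.0%, lie above all libraries given Pifithrin-α or SMN-C3, at 9.11% to 17.3%, whereas for Srsf3 the groups overlap.

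Other members differed from one another. Hnrnpu and Hnrnpdl, chosen after their values were seen, had log2 changes in balance of 1.19 and 1.37 in SMA against WT without overlap (limma adjusted p = 0.557 and 0.376). With Pifithrin-α they were at -1.36 and -1.07 with overlap. Hnrnpa2b1 and Hnrnpl had the opposite signs, at -2.30 and -2.09 in SMA and at 2.18 and 1.75 with Pifithrin-α, all with overlap. For these genes the balance without WT 1 was not tested. The exon of Srsf3 was kept in 8.54%, 15.3% and 30.9% of its TPM in WT and in 7.96%, 20.2% and 11.5% in SMA, with overlap in every group. The exon of Tra2a was kept in 0%, 18.2% and 23.0% in WT and in 1.26%, 14.7% and 5.07% in SMA. Over all its unproductive transcripts, Tra2a held 39.0%, 43.4% and 41.4% in WT and 13.5%, 33.8% and 13.6% in SMA (log2 change in balance -1.36, SE 0.48, limma adjusted p = 0.339), opposite in sign to Tra2b, and -1.43 without WT 1. Hnrnpm, which binds G- and U-rich RNA, had the lowest p in SMA against WT, with unproductive shares of 67.2%, 45.4% and 21.8% in WT and 4.76%, 20.5% and 0.442% in SMA (log2 change in balance -3.25, SE 0.89, limma adjusted p = 0.215), and without WT 1 the change was -2.58. March2 overlaps Hnrnpm on the same strand, so some of its reads could belong there. With MW150 the lowest p were those of Srsf5, an SR protein close to Srsf6 (6.66%, 15.5% and 3.50% in SMA, 23.8%, 31.3% and 34.6% with MW150, log2 change 2.38, SE 0.91, limma adjusted p = 0.687), Tra2a (0.89) and Srsf4 (0.71). With Pifithrin-α, besides Srsf6, they were those of Srsf4 (1.49) and Hnrnpa2b1 (2.18).

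Single transcripts were tested for use relative to the rest of their gene, with 192 transcripts of 31 members among 35862. In SMA against WT, 0 member transcripts were called by limma (0.00279% of all transcripts) and 32 had an unadjusted p under 0.05 (11.3%). The latter count was not tested without WT 1. The lowest p was that of the coding transcript Srsf11-201, with 0, 3.89 and 0.276 TPM across WT against 20.6, 19.0 and 17.1 TPM across SMA (log2 change in use 3.86, SE 0.89, limma adjusted p = 0.178). It stood at 20.8, 16.5 and 16.9 TPM with MW150, at 23.2, 0.934 and 1.11 TPM with Pifithrin-α and at 2.03, 10.6 and 10.9 TPM with SMN-C3. All WT libraries and the 4 libraries rich in mitochondrial RNA thus lay at 3.89 TPM or below, and all others at 10.6 TPM or above. Hnrnph1-218 (log2 change in use 2.84, SE 0.69, limma adjusted p = 0.197) and Hnrnpm-213 (log2 change in use -3.37, SE 0.92, limma adjusted p = 0.235) came next. With limma's diffSplice, which pools the spread of a gene's transcripts, 3 members were called in SMA against WT, the same Hnrnph1, Hnrnpm and Srsf11, where 1.19% of genes were. This test was not run without WT 1.

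In the treatment comparisons 0 member transcripts were called either way (0% of all transcripts by limma each time), with 10, 33 and 8 at an unadjusted p under 0.05 for MW150, Pifithrin-α and SMN-C3 (4.44%, 7.7% and 6.17%). For MW150 the lowest p were those of Hnrnph3-205 (log2 change in use 1.65), Hnrnpk-204 (1.68) and Hnrnpk-223 (1.72). For Pifithrin-α they were Hnrnpd-201 (-2.09), Hnrnpr-206 (-1.77) and Srsf4-201 (1.66). For SMN-C3 they were Hnrnpc-205 (3.88), Hnrnph1-212 (2.17) and Hnrnpdl-203 (2.66). Hnrnpc-205 was at 22.9 TPM in SMA+SMN-C3 1 and at 54.9, 24.8 and 50.6 TPM in the other 3 libraries rich in mitochondrial RNA, against 0 to 11.5 TPM elsewhere.

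No gene on the lists of the wider splicing pathway passed the test either. The 8 kinases and importer that phosphorylate and carry SR proteins (Srpk1 to Srpk3, Clk1 to Clk4, Tnpo3), 10 SR-related proteins, 19 hnRNP relatives and 20 neuronal or tissue-specific regulators were all measured, and 0 of each were called in SMA against WT or in any treatment against SMA. Their median log2 changes in SMA against WT were -0.19, -0.26, -0.11 and 0.07, beside 0.24 for all genes. Each of these lists had its highest WT sum in WT 1, and their medians without it were not tested. With MW150 all 8 kinases and importer had a log2 change above 0, with a median of 0.36. Of all genes 57.9% lay above 0, with a median of 0.06. Clk4, a kinase of SR proteins, was the 1 of the 8 with an unadjusted p under 0.05 (log2 change 0.91, limma adjusted p = 1). Taf15, an RNA-binding protein, had the lowest p of these lists in SMA against WT (log2 change -1.61, SE 0.44, limma adjusted p = 0.171), and its log2 change with MW150 was 1.22 (limma adjusted p = 1).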

How the data were processed

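RNA from 15 laser-capture libraries, 3 per group, was analysed from the gene and transcript tables. The authors deposited TPM values, 1 column per library, each summing to 1000000. The submitters' processing notes name kallisto 0.44.0, GRCm38.p6, mm10 and DESeq2; the index and the annotation release are not given in the sources used here. Of 118489 transcripts, 116816 (98.6%) matched GENCODE M21 (GRCm38), which supplied coordinates, transcript classes and sequences. Gene values equalled the sum of their transcripts within 1% in every library for 31 of 33 members, Hnrnpu and Srsf1 being the exceptions. TPM carries no counts, so the depth is unknown and no counting interval is given.

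The tests took log2(TPM + 1), which understates changes of low genes, for the 15425 genes reaching 1 TPM in 3 or more libraries. Group means were estimated from all 15 libraries together by limma 3.58.1 in R 4.3.3 (variance trend, two-sided tests), adjusted by Benjamini-Hochberg over all genes and called under 0.05. Transcript use was log2(transcript + 1) minus log2(rest of the gene + 1). Unproductive balance was log2(NMD and retained-intron TPM + 1) minus log2(coding TPM + 1). The fits of gene levels, transcript use and balance were run on simulated data with known changes and errors independent between genes. The ratios, the F test, diffSplice and the library weights were not. Tables and figures used Python 3.11.15, pandas 2.3.3 and matplotlib 3.10.9.

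Named members were the 5 markers Srsf1, Srsf3, Tra2b, Hnrnpa1 and Hnrnpa2b1, the 5 lowest p in SMA against WT, the 3 lowest for each treatment against SMA and for the F test, any called member, and the 3 highest and 3 lowest in WT; for transcripts and balance, any called and the 3 lowest p. Members and lists were chosen with earlier results of these data known. Alternatives were other scalings, pseudocounts, filters, library weights, fits of only the groups compared, a replicate block and leaving out libraries.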

Additional observations from a re-analysis of the deposited data

How the results depend on the processing

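The number of splicing regulators called was 0 in every comparison and stayed 0 in 265 of 279 recomputed counts, among them all fits with a replicate block, another pseudocount, another filter or a library left out. Same-numbered libraries did not deviate together more than others did. Their median r was 0.0079 (30 pairs, -0.34 to 0.29, 4 over 0.1), beside 0.0078 for different numbers (60 pairs, -0.25 to 0.34, 16 over 0.1). Taken over all groups, these values cannot exclude a pairing between some of them. The replicate block called 0 members as well. The exceptions were limma's library weights, 1 fit of only the groups compared, and diffSplice. With default weights, which did not converge and gave SMA+Pifithrin-α 2 a weight of 276, calls numbered 23 for Pifithrin-α against SMA, 12 against WT, 17 against MW150 and 22 against SMN-C3, 5 for MW150 against SMN-C3 and 29 by the F test, where 33.4%, 24.4%, 44.2%, 37.5%, 11.3% and 64% of all genes were called. With weights estimated gene by gene, added after seeing the data, the same counts were 13, 4, 9, 14, 3 and 15, where 10.2%, 3.95%, 17.2%, 15.2%, 8.86% and 20.9% of all genes were called. Fitting only MW150 and SMN-C3 called 2, and diffSplice called 3 in SMA against WT.

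Member medians moved as follows. Median-of-ratios scaling gave -0.42 for SMA against WT, 0.61 for Pifithrin-α against SMA, 0.14 for SMN-C3 against SMA, -0.46 for MW150 against WT, -0.43 for MW150 against Pifithrin-α and -0.12 for MW150 against SMN-C3. The default and gene-by-gene weights gave 0.10 and 0.070 for MW150 against WT, 0.34 and 0.30 for Pifithrin-α against WT, and -0.26 each for MW150 against Pifithrin-α. Without the 4 libraries above 10% mitochondrial TPM, also added after seeing the data, Pifithrin-α against SMA gave 0.17 and MW150 against WT 0.12. With only protein-coding transcripts, added likewise, SMN-C3 against WT gave -0.019. Leaving out 1 library at a time gave -0.42 to -0.026 for SMA against WT, -0.28 to 0.12 for MW150, -0.18 to 0.18 for Pifithrin-α and -0.42 to -0.048 for SMN-C3 against WT, with WT 1 or WT 2 left out at the extremes.

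Small changes of single genes turned sign. With MW150, Srsf3 was at -0.0080 and Hnrnpa1 at -0.034 under median-of-ratios scaling, Srsf3 was at -0.028 with protein-coding transcripts only, and leaving out 1 library gave -0.0040 to 0.15 and -0.018 to 0.12. With SMN-C3, Srsf1 was at 0.24 under that scaling and at 0.016 without mitochondrial genes. Leaving out 1 library gave -0.35 to 0.25 for Srsf1, -0.071 to 0.24 for Srsf3 and -0.056 to 0.30 for Hnrnpa1. Without the 4 libraries, Srsf3 and Hnrnpa1 were at -0.071 and -0.056 with SMN-C3, and Hnrnpa1 at -0.037 with Pifithrin-α. The Hnrnpa1 to Srsf1 ratio ranged from -0.25 to 0.38 with Pifithrin-α and from -0.034 to 0.36 with SMN-C3 when 1 library was left out, and the Hnrnpa1 to Tra2b ratio from -0.24 to 0.066 in SMA against WT, -0.19 to 0.042 with MW150, -0.22 to 0.10 with Pifithrin-α and -0.16 to 0.073 with SMN-C3. The cause of these moves was not tested. TPM gives no depth, and 3 libraries per group limit the precision.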
